A study of Ovis aries with 57 samples.

Results

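Luminal epithelium (LE) was set against glandular epithelium (GE) of the sheep uterus on day 20 of pregnancy, gene by gene, in 8 of the 57 libraries of the series. All 4 day 20 LE libraries (numbered 17, 19, 21 and 23) and all 4 day 20 GE libraries (018, 020, 022 and 024) were taken, and rows were joined by gene identifier. The series holds 40 libraries of LE and GE from days 10, 12, 14, 16 and 20 of pregnancy, and conceptus libraries. LE and GE cells were cut by laser microdissection from frozen, cresyl violet stained sections of the horn ipsilateral to the ovary, and the RNA was amplified by single primer isothermal amplification before sequencing. The labels name no other treatment, genotype or age for these pregnant animals. Both epithelia were captured from 1 slide per animal, but the labels do not say which LE and which GE library share an animal. Tests therefore measure the spread between libraries, and values are RPKM, the reads per kilobase of exon and M mapped reads.

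LE lines the uterine cavity and is the surface to which the trophoblast of the conceptus attaches. GE forms coiled glands in the wall below it and releases its products into the cavity through ducts. Secretions and transported nutrients of both, together called histotroph, feed the conceptus before a placenta is in place. In sheep the conceptus secretes interferon tau, which acts on the endometrium together with ovarian progesterone, and later placental lactogen, which acts on the glands through the prolactin receptor.

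Read totals behind the values ranged from 12.8 to 26.0 M in the LE libraries and from 8.28 to 19.7 M in the GE libraries, of which 3.24 to 6.68 M and 2.21 to 4.14 M lay in exons. Between 6752 and 8741 genes reached 1 RPKM in LE, and between 7508 and 8529 in GE. Pearson's r of log2(RPKM + 1) was 0.77 to 0.86 between LE libraries and 0.90 to 0.92 between GE libraries, so LE libraries were less alike. Markers of 10 cell types were summed per library. Gland markers summed to 5.27 and 6.87 RPKM in LE 17 and 19 but to 265 and 1121 RPKM in LE 21 and 23, against 2562 to 12338 RPKM in GE. GRP and SERPINA14 made up nearly all of the sums in LE 21 and 23. Gland markers above 0.5 RPKM numbered 4 and 3 in LE 17 and 19 and 2 and 5 in LE 21 and 23. Markers of dividing cells summed to 9.26 and 7.37 RPKM in LE 17 and 19 and to 101 and 89.1 RPKM in LE 21 and 23, against 10.5 to 18.5 RPKM in GE. Uterine epithelium markers summed to 206 to 640 RPKM in LE and 210 to 370 RPKM in GE, and the labels of both tissues were matched by LGALS15 in LE and SERPINA14 and GRP in GE, given next. Transcripts of FOXA2, the gland transcription factor, were listed at 0 in every LE library and at 0.60, 0.04, 0.07 and 1.26 RPKM in GE 018, 020, 022 and 024.

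Of 11131 genes tested with limma on log2(RPKM + 1), 1194 differed between LE and GE at an adjusted p under 0.05, which is 10.7%. Of these, 477 genes were higher in LE (4.29%) and 717 were lower in LE (6.44%). All 4 LE libraries lay above all 4 GE libraries for 635 genes (5.7%) and below them for 1350 genes (12.1%). The log2 difference of all genes, LE minus GE, had a median of -0.16, so values near that size stand at the middle of all genes. Scaling by TMM moved this median to -0.03 and the split to 627 genes higher and 500 lower in LE, that is 55.6% of calls higher against 39.9% before scaling. With RLE and upper quartile scaling 52.6 and 57.2% of calls were higher in LE. Without LE 21 and 23, 147 genes were higher and 309 lower, and 418 of the 1194 calls kept their direction. Without LE 17 and 19 the counts were 619 and 446. In bulk samples such as these, fewer cells of a type and less RNA per cell cannot be told apart.

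The genes furthest towards LE encode a secreted lectin, a protease inhibitor and enzymes of steroid and prostaglandin synthesis. LGALS15, a galectin secreted by sheep LE, had 7844, 1293, 13856 and 11036 RPKM in LE 17, 19, 21 and 23, against 0.50, 0.83, 1.61 and 0 RPKM in GE 018, 020, 022 and 024. LE 19 was the lowest of the LE libraries, yet the groups were far apart. The difference was 11.91 ± 1.17 (log2, SE) with an adjusted p of 2.97e-09; other galectin features are listed in the same annotation, and reads shared between such copies make the exact level uncertain. CST6, cystatin M, an inhibitor of cathepsins, averaged 577 ± 475 RPKM in LE and 2.29 ± 1.67 RPKM in GE (SD, n = 4 each), a log2 difference of 7.28 ± 0.83 (adjusted p = 6.56e-08). FXYD4, a regulator of the sodium pump, had 473, 644, 654 and 525 RPKM in LE and 0.45, 0, 0 and 0 RPKM in GE, with the 4 LE libraries close together (9.02 ± 0.80, adjusted p = 3.2e-10). BACE2, an aspartyl protease of the cell surface, was as even, at 188, 187, 159.9 and 240.1 RPKM in LE against 9.17, 1.40, 1.62 and 0.57 RPKM in GE (5.93 ± 0.51, adjusted p = 1.97e-10). PTGS2, the inducible enzyme of prostaglandin synthesis, had 65.9, 175, 263 and 124 RPKM in LE against 3.91, 2.12, 3.05 and 2.44 RPKM in GE (5.20 ± 0.74, adjusted p = 4.73e-06).

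Steroid enzymes were seen in LE with 1 low library. 3BHSD (HSD3B1), which makes progesterone from pregnenolone, had 72.1, 2.67, 113 and 117 RPKM in LE and was listed at 0 in every GE library, with an adjusted p of 1.99e-07. HSD11B1, which turns cortisone into active cortisol, had 65.7, 5.74, 71.2 and 90.3 RPKM in LE and at most 0.09 RPKM in GE (5.30 ± 0.76, adjusted p = 4.58e-06). LE 19 was the low library for both genes and still lay above every GE library. CYP26A1, which breaks down retinoic acid, had 138, 1.16, 29.4 and 15.3 RPKM in LE and was listed at 0 in all 4 GE libraries (adjusted p = 2.71e-07).

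Among the other genes with the largest differences were SERPINE2, a protease inhibitor (5.12 ± 0.81, adjusted p = 2.36e-05), MSLN, the surface protein mesothelin (4.93 ± 0.57, adjusted p = 7.04e-08), and PROM2, a protein of membrane protrusions (4.64 ± 0.65, adjusted p = 3.5e-06). CA1, a carbonic anhydrase, averaged 113 ± 94.2 RPKM in LE and 0.41 ± 0.50 RPKM in GE. IGFBP3, which binds insulin-like growth factors, averaged 37.6 ± 21.3 RPKM in LE and 0.68 ± 0.98 RPKM in GE. EMB, a partner of monocarboxylate carriers, averaged 334 ± 297 RPKM in LE and 11.6 ± 4.97 RPKM in GE. With the peptide carrier PEPT1, described with the other carriers, these belong to the 15 leading genes, except CYP26A1, which ranked below them. They were chosen from 184 genes higher in LE that had a symbol, a mean of at least 10 RPKM in LE and no overlap between the groups, and from 244 such genes lower in LE.

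Gland transcripts that led on the other side encode milk-like secretions, a receptor for lactogenic hormones and parts of cytokine and activin signalling. SERPINA14, the uterine milk protein, had 0.94, 0, 39.6 and 379 RPKM in LE against 2829, 1208, 4611 and 655 RPKM in GE. The gene GRP, gastrin releasing peptide, had 2.89, 0.63, 225 and 719 RPKM in LE against 6093, 5545, 6969 and 1349 RPKM in GE. LE 21 and 23 held far more of both transcripts than LE 17 and 19, and GE 024 held the least of the glands, but the groups did not overlap. SERPINA14 was lower in LE (log2 difference -7.09 ± 1.17, adjusted p = 4.44e-05), and GRP likewise (-7.05 ± 1.39, adjusted p = 0.00052). Without LE 17 and 19 GRP lost its call (adjusted p = 0.13).

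OST, that is SPP1 or osteopontin, a secreted ligand of integrins, had 0, 4.10, 0.23 and 12.5 RPKM in LE against 198, 291, 617 and 546 RPKM in GE (-6.95 ± 0.71, adjusted p = 5.49e-09). PRLR, the prolactin receptor, had 0.16, 0.80, 0 and 2.52 RPKM in LE against 148, 119.9, 92.5 and 84.2 RPKM in GE. Its log2 difference of -6.05 ± 0.46 had an adjusted p of 1.36e-11, and no LE library came near the GE range. STC1, the secreted glycoprotein stanniocalcin, had 0.72, 0, 0.17 and 7.73 RPKM in LE against 16.8, 72.8, 140.2 and 11.4 RPKM in GE (-4.25 ± 0.64, adjusted p = 1.11e-05). INHBA, the activin A subunit, had 0, 0.11, 0.03 and 2.71 RPKM in LE against 54.8, 74.6, 78.1 and 37.2 RPKM in GE (-5.38 ± 0.50, adjusted p = 9.37e-10). LE 23 was the highest LE library for SPP1, PRLR, STC1 and INHBA. IL6ST, the shared signalling receptor of the interleukin 6 family, was present in both tissues, at 14.6, 17.3, 22.4 and 43.6 RPKM in LE against 564, 415, 611 and 535 RPKM in GE (-4.50 ± 0.45, adjusted p = 5.34e-09).

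CFI, complement factor I, averaged 1.12 ± 1.85 RPKM in LE and 111 ± 29.7 RPKM in GE, and MEP1B, a subunit of the protease meprin, had 2.37, 46.1, 0.23 and 0.87 RPKM in LE against 283, 210.3, 236 and 282 RPKM in GE. LE 19 held the most MEP1B of the LE libraries. The tight junction gene CLDN10 (-5.44 ± 0.49, adjusted p = 3.31e-10), the secreted phospholipase PLA2G10 (-4.88 ± 0.88, adjusted p = 0.00016) and the Wnt cofactor PYGO1 (-4.54 ± 0.68, adjusted p = 9.06e-06) were lower in LE too. So were DNAJC12, a co-chaperone (-4.60), VDUP1, the thioredoxin interacting protein (-4.41), VWA3B (-4.31) and SCGN, the calcium sensor secretagogin (-4.27). As a share of the GE mean, the 15 leading gland genes had a median level of 0.14% in LE 17, 0.99% in LE 19, 0.091% in LE 21 and 3.59% in LE 23. GRP reached 4.50% of its GE mean in LE 21 and 14.4% in LE 23, and SERPINA14 1.70% and 16.3%. For PRLR these shares were 0 and 2.27%. The 15 genes were chosen in part by their low values in these LE libraries, so their shares cannot gauge gland material there. Whether gland material in LE 21 and 23 took part in these differences was not tested.

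**Figure D1:**
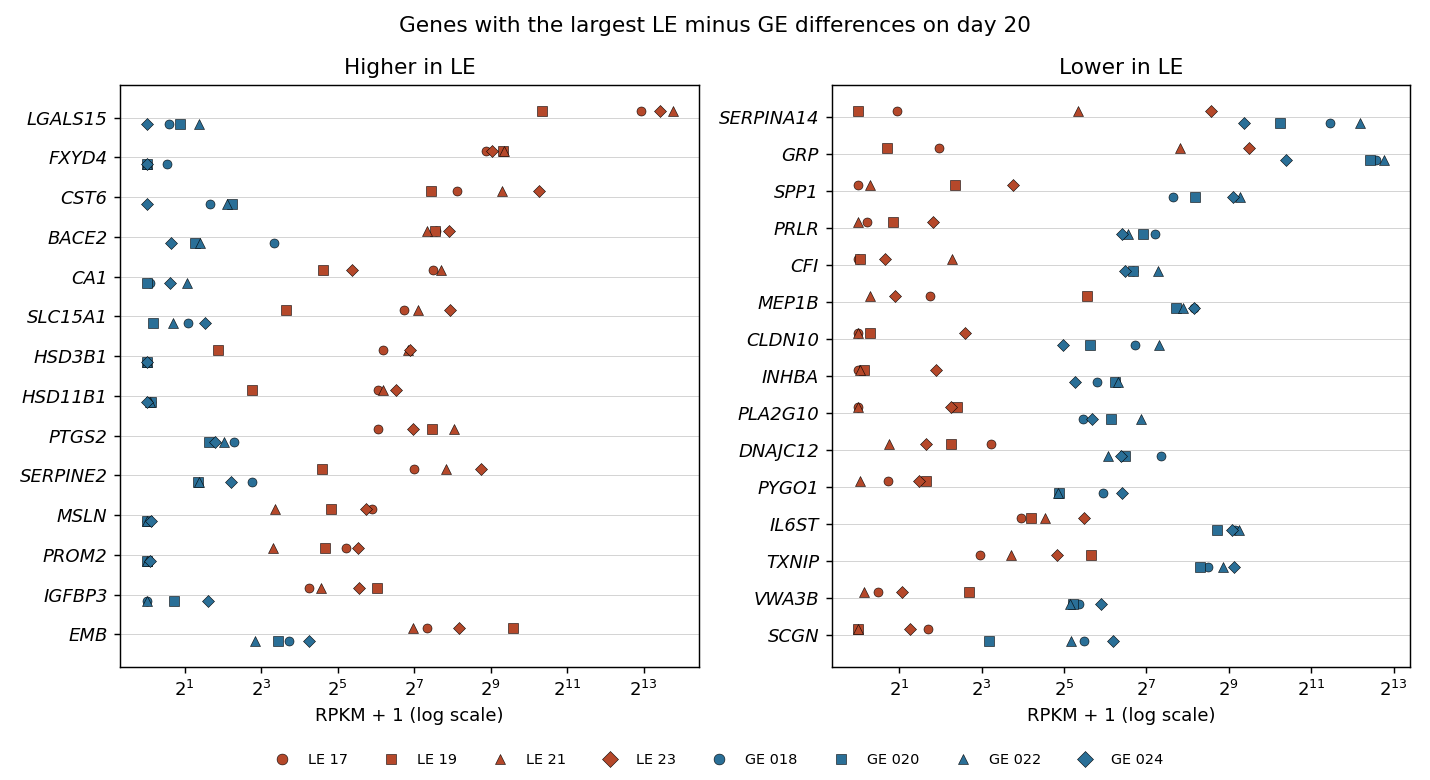
RPKM + 1 on a log axis for the named genes among the 15 with the largest differences in each direction, with LE libraries in red above GE libraries in blue. LE 21 and 23 stand nearest to GE for SERPINA14 and GRP, and LE 19 stands lowest in LE for LGALS15, HSD3B1 and HSD11B1.

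Genes were also read by function in 26 lists. Beside every count below stand the shares of all genes tested, 4.29% higher and 6.44% lower in LE. These shares hold only for the fit of all libraries without scaling. Over all genes, 147 were higher and 309 lower of 10993 without LE 21 and 23, and 619 and 446 of 11075 without LE 17 and 19. After TMM scaling they were 627 and 500 of 10957, and after upper quartile scaling 470 and 352 of 10904. Of 26 lumen genes that progesterone and interferon tau are known to regulate, 19 were tested, and 11 were higher and 3 lower in LE, with a median log2 difference of 3.28 beside -0.16 for all genes. The list was drawn up with these results known, so its direction is no independent evidence. Leaving out LE 21 and 23, 9 were higher and 2 lower. Besides LGALS15, CST6, PTGS2 and HSD11B1, it holds IGFBP1, which binds insulin-like growth factors and had 3.32, 177, 14.8 and 28.7 RPKM in LE against 1.46, 0.25, 1.24 and 2.27 RPKM in GE (3.49 ± 0.77, adjusted p = 0.00197). LE 19 was the highest library for IGFBP1. CTSL, a cathepsin, had 72.6, 6.16, 4.46 and 49.5 RPKM in LE against 9.53, 0.84, 0.38 and 1.74 RPKM in GE (2.74 ± 0.78, adjusted p = 0.0185). The 2 groups overlapped for CTSL, and its call ended without LE 17 (adjusted p = 0.11), LE 23 (0.082), GE 020 (0.061) or GE 022 (0.072). Cystatin C (CST3) had 582, 82.9, 855 and 2006 RPKM in LE and 138, 142, 189 and 117 RPKM in GE, and its adjusted p was 0.0623. The Wnt ligand WNT7A was too low to test, at 0, 0.10, 0.09 and 1.92 RPKM in LE and 0 in every GE library.

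**Figure D2:**
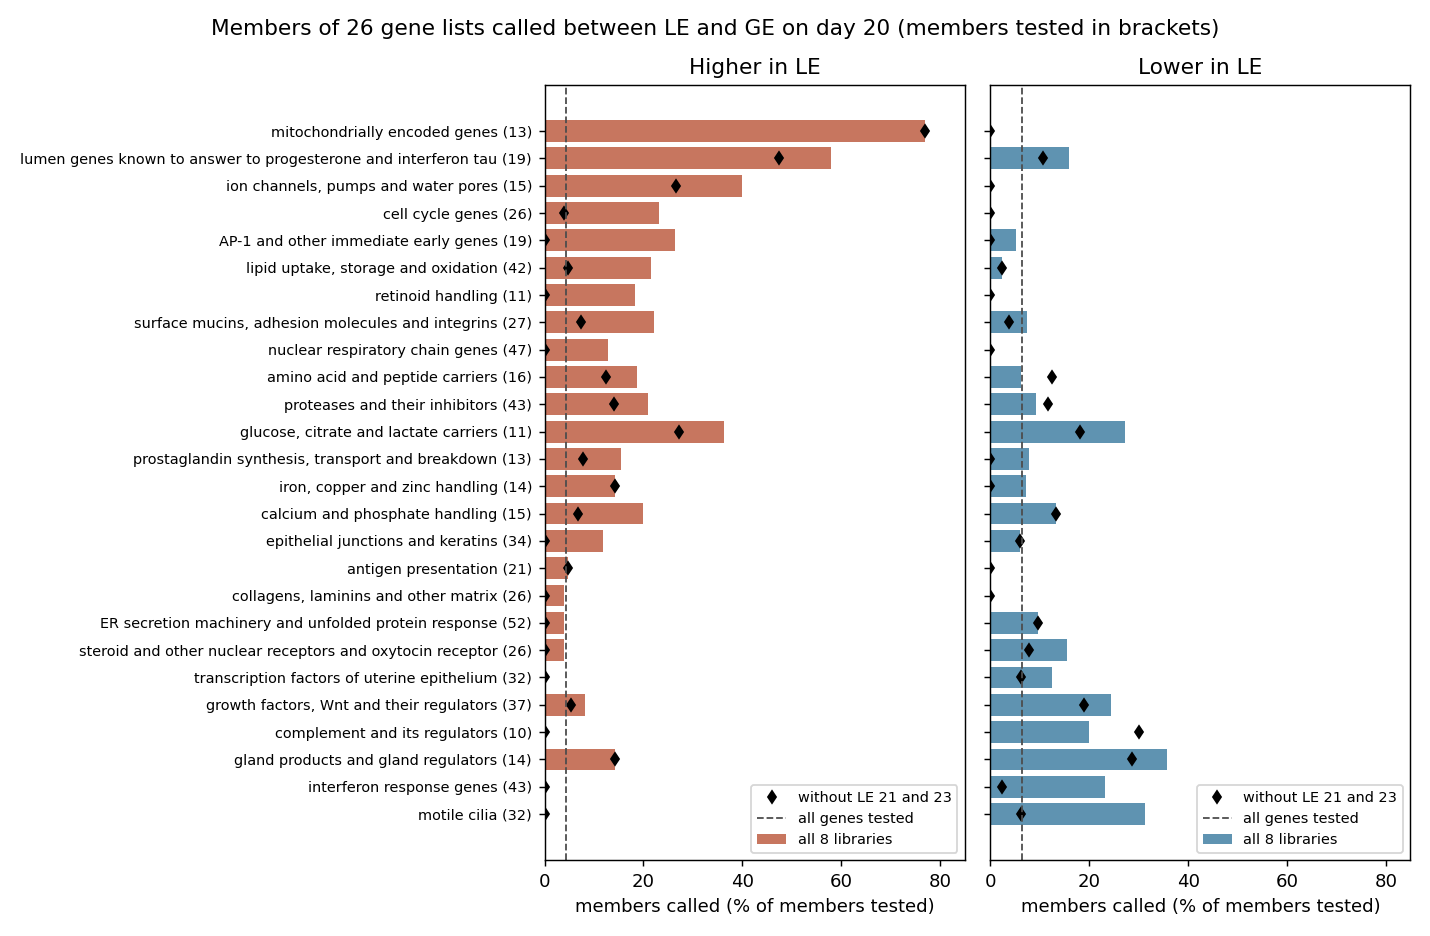
Share of tested members called higher in LE (left) and lower in LE (right) for each of 26 lists, with the number tested in brackets; diamonds give the share without LE 21 and 23, over the same members, and dashed lines the share of all genes tested (4.29% and 6.44%). The dashed lines hold for the fit of all libraries and not for the diamonds. Without LE 21 and 23, 147 of 10993 genes were higher and 309 lower. Mitochondrially encoded, lumen and ion channel lists lead on the left, with 10 of 13, 11 of 19 and 6 of 15 members called.

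Of 15 tested genes for ion channels, pumps and water pores, 6 were higher and 0 lower in LE, with a median of 1.09. With LE 21 and 23 left out, 4 were higher. CFTR, the chloride channel, had 23.0, 54.6, 16.4 and 18.1 RPKM in LE against 4.83, 3.04, 2.82 and 4.98 RPKM in GE (2.42 ± 0.46, adjusted p = 0.000371). SCNN1B, a subunit of the epithelial sodium channel, had 3.76, 1.44, 17.5 and 35.2 RPKM in LE against 0, 0.08, 0.08 and 0.70 RPKM in GE (2.98 ± 0.46, adjusted p = 1.49e-05). LE 21 and 23 were the high libraries for SCNN1B, whereas LE 19 was the high one for CFTR. TRPM6, a magnesium channel, averaged 4.69 ± 3.39 RPKM in LE and 0.15 ± 0.21 RPKM in GE (2.17 ± 0.33, adjusted p = 1.21e-05).

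Carriers of sugars were called in both directions. Of 11 tested carriers of glucose, citrate and lactate, 4 were higher and 3 lower in LE. SLC2A1, the facilitative glucose carrier GLUT1, had 14.4, 60.9, 40.4 and 118 RPKM in LE against 4.65, 0.69, 1.06 and 3.08 RPKM in GE (3.96 ± 0.60, adjusted p = 1.26e-05). SLC2A12, a related carrier, averaged 38.5 ± 22.8 RPKM in LE and 2.01 ± 1.29 RPKM in GE (3.50 ± 0.63, adjusted p = 0.000167). SLC16A1, which carries lactate, averaged 11.2 ± 7.58 RPKM in LE and 0.94 ± 1.65 RPKM in GE (2.67 ± 0.52, adjusted p = 0.000434), and LE 17, at 2.32 RPKM, lay below GE 018, at 3.41 RPKM. SLC5A11, a sodium coupled inositol and glucose carrier, averaged 0.77 ± 0.79 RPKM in LE and 7.91 ± 2.19 RPKM in GE (-2.42 ± 0.44, adjusted p = 0.00019). SLC5A1, the sodium coupled glucose carrier SGLT1, had 0, 4.34, 0.04 and 5.31 RPKM in LE against 20.1, 24.4, 8.26 and 18.6 RPKM in GE (-2.86 ± 0.95, adjusted p = 0.0459). This call was at the edge of the threshold, and it ended without LE 17 (adjusted p = 0.15), LE 21 (0.16), GE 018 (0.096), GE 020 (0.11) or GE 024 (0.099), and after TMM scaling (0.056).

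Of 16 tested carriers of amino acids and peptides, 3 were higher and 1 was lower in LE, beside 4.29% and 6.44% of all genes, so the share lower is near that of all genes. PEPT1 (SLC15A1), which takes up dipeptides and tripeptides, had 105, 11.5, 137 and 245 RPKM in LE against 1.14, 0.12, 0.63 and 1.89 RPKM in GE (5.48 ± 0.61, adjusted p = 4.65e-08). SLC7A2, a carrier of arginine and lysine, had 24.8, 0.90, 78.6 and 52.3 RPKM in LE against 0.23, 0.73, 1.17 and 0.39 RPKM in GE (3.75 ± 0.60, adjusted p = 2.98e-05). LE 19 was the low library for both and for SLC7A2 lay within the GE range. SLC7A9, a carrier of cystine, averaged 151 ± 60.4 RPKM in LE and 26.4 ± 14.5 RPKM in GE (2.65 ± 0.77, adjusted p = 0.0195), and this call ended without GE 022 (0.10), LE 21 (0.069) or LE 23 (0.051). SLC38A2, which carries neutral amino acids, was the member that was lower in LE, at 4.45, 2.69, 12.9 and 6.15 RPKM against 36.9, 44.3, 85.6 and 65.0 RPKM in GE (-3.06 ± 0.47, adjusted p = 1.26e-05).

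At the cell surface, 6 of 27 tested mucins, adhesion molecules and integrins were higher and 2 lower in LE, and without LE 21 and 23 these counts were 2 and 1. MUC16, a large membrane mucin, had 23.6, 22.2, 38.1 and 5.25 RPKM in LE and at most 0.27 RPKM in GE (4.12 ± 0.70, adjusted p = 7.25e-05). MUC1 had 7.87, 6.35, 23.0 and 15.5 RPKM in LE against 6.63, 1.72, 1.78 and 4.14 RPKM in GE, which did not pass the test (adjusted p = 0.114). ITGA3, an integrin subunit, averaged 20.7 ± 17.4 RPKM in LE and 1.45 ± 0.36 RPKM in GE (2.78 ± 0.52, adjusted p = 0.000265), and CD9, a tetraspanin, 95.6 ± 47.0 RPKM in LE and 24.1 ± 17.1 RPKM in GE (2.04 ± 0.48, adjusted p = 0.00359). Both were highest in LE 21 and 23, and without these their adjusted p was 0.067 and 0.15. Of 34 tested junction and keratin genes, 4 were higher and 2 lower in LE, beside 4.29% and 6.44% of all genes. Without LE 21 and 23 these counts were 0 and 2. CLDN4, a tight junction claudin, had 26.7, 40.99, 115 and 107 RPKM in LE against 11.0, 7.45, 3.43 and 6.91 RPKM in GE (3.00 ± 0.67, adjusted p = 0.00215). CTNNA1, which links cadherins to actin, averaged 59.1 ± 17.8 RPKM in LE and 19.5 ± 6.48 RPKM in GE (1.56 ± 0.33, adjusted p = 0.00119), and both calls ended without LE 21 and 23 (0.13 and 0.068). DSC2, a desmosome cadherin, was lower in LE, at 1.13 ± 1.14 RPKM against 10.6 ± 2.87 RPKM in GE (-2.55 ± 0.42, adjusted p = 4.26e-05).

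Of 43 tested proteases and inhibitors, 9 were higher and 4 lower in LE, and 15 and 4 after TMM scaling. CTSV, a cathepsin, had 1763, 237, 1414 and 2882 RPKM in LE against 119, 85.1, 99.5 and 85.7 RPKM in GE (3.55 ± 0.51, adjusted p = 4.76e-06). ADAMTS1, a matrix protease, averaged 34.2 ± 19.1 RPKM in LE and 1.70 ± 1.02 RPKM in GE (3.60 ± 0.53, adjusted p = 8.22e-06), and HTRA1, a secreted serine protease, 33.2 ± 24.4 RPKM in LE and 1.75 ± 0.41 RPKM in GE (3.31 ± 0.67, adjusted p = 0.000785). Without LE 21 and 23, 6 members were higher and 5 lower, and all 3 of these genes passed.

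Lipid genes leaned to LE, with 9 of 42 tested members higher and 1 lower, and a median of 0.72. DGAT2, which forms triglyceride, had 10.8, 77.4, 5.13 and 12.5 RPKM in LE against 1.03, 0, 0 and 0 RPKM in GE (3.80 ± 0.65, adjusted p = 7.87e-05). ELOVL6, which lengthens fatty acids, had 47.0, 6.81, 49.5 and 91.0 RPKM in LE against 5.14, 1.38, 0.17 and 4.77 RPKM in GE (3.53 ± 0.61, adjusted p = 8.37e-05). FASN, the fatty acid synthase, had 9.47, 2.42, 22.5 and 36.6 RPKM in LE against 0.44, 0.71, 0.89 and 1.12 RPKM in GE (2.91 ± 0.58, adjusted p = 0.000535), and SCD, which desaturates its products, averaged 16.0 ± 11.2 RPKM in LE and 1.54 ± 0.80 RPKM in GE (2.49 ± 0.56, adjusted p = 0.00224). LE 19 was lowest in LE for ELOVL6, FASN and SCD but highest for DGAT2. Leaving out LE 21 and 23, 2 lipid genes were higher in LE, and FASN (0.12) and SCD (0.18) did not pass. Of 11 tested retinoid genes, 2 were higher in LE, CYP26A1 among them, and 0 without LE 21 and 23, a setting in which CYP26A1 did not pass the filter on low values.

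Respiratory chain transcripts encoded by mitochondrial DNA were higher in LE for 10 of 13 genes, and those encoded in the nucleus for 6 of 47. The 13 mitochondrially encoded genes held 25.0, 15.4, 14.3 and 15.5% of exon reads in LE 17, 19, 21 and 23, against 3.13, 2.72, 2.87 and 1.31% in GE 018, 020, 022 and 024. The groups did not overlap, and the means of 17.5 ± 4.97% in LE and 2.51 ± 0.82% in GE (SD, n = 4 each) differed by 15.0 percentage points, with an exact two-sided permutation p of 0.0286, the smallest that 70 arrangements allow. Without LE 21 and 23 the difference was 17.7 points, with an exact permutation p of 0.0667, again the smallest possible. Of these 13 genes, 10 were higher in LE, with a median of 3.04, and 10 without LE 21 and 23. COX1, a subunit of cytochrome oxidase, averaged 12590.1 ± 3315 RPKM in LE and 1233 ± 459 RPKM in GE (3.41 ± 0.38, adjusted p = 4.79e-08). ND4 and ND2 of complex I differed by 2.92 ± 0.44 (adjusted p = 1.11e-05) and 3.04 ± 0.44 (adjusted p = 5.02e-06), and CYT.B of complex III by 3.47 ± 0.50 (adjusted p = 6.39e-06). Of the 47 tested nuclear genes of the chain, 41 did not pass, and the 6 higher in LE stand beside 4.29% of all genes, with a median of 0.76. TMM scaling gave 11 higher. Without LE 21 and 23, 0 passed in either direction, with a list median of 0.74. COX4I1 had 232, 108, 155 and 261 RPKM in LE against 94.0, 53.5, 26.2 and 50.8 RPKM in GE (1.79 ± 0.45, adjusted p = 0.00758). ATP5B, of the ATP synthase, had 129.8, 72.3, 253 and 207 RPKM in LE against 82.3, 52.1, 36.8 and 54.1 RPKM in GE (1.45 ± 0.36, adjusted p = 0.00657), and its call ended when the 8 day 20 libraries were fitted alone (0.0571).

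**Figure D3:**
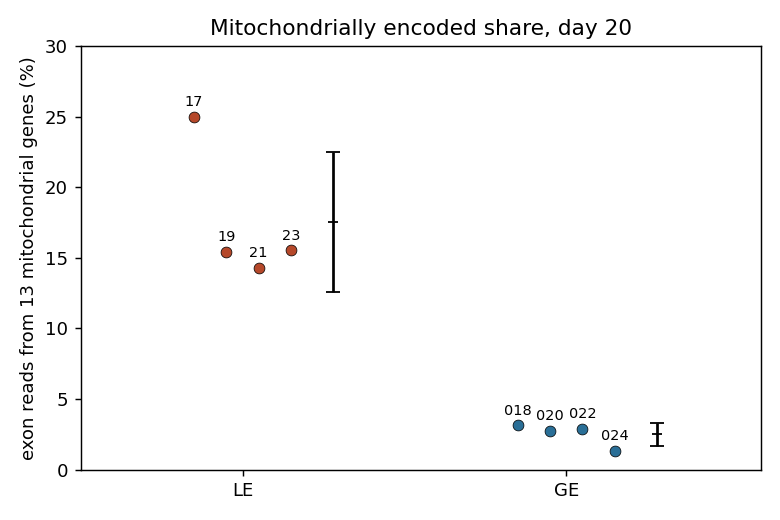
Percent of exon reads from the 13 mitochondrially encoded genes in each LE and GE library, with mean ± SD of 4 libraries beside the points. The LE libraries lie between 14.3 and 25.0% and the GE libraries between 1.31 and 3.13%.

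Interferon response genes gave 0 members higher and 10 lower in LE among 43 tested, with a median of -1.30 beside -0.16 for all genes. The count of lower members was 7 after TMM scaling and 3 after upper quartile scaling. It was 1 without LE 21 and 23, 8 without LE 17 and 19 and 14 without LE 19. Without LE 21 and 23 the list median was -1.33, and calls over all genes fell from 1194 to 456. HERC5, an ISG15 ligase, had 0.25, 2.70, 0.67 and 1.67 RPKM in LE against 6.23, 5.38, 16.1 and 20.7 RPKM in GE (-2.42 ± 0.50, adjusted p = 0.000888). IFIT5, which binds foreign RNA, had 15.4, 26.4, 4.64 and 19.2 RPKM in LE against 45.9, 50.2, 67.3 and 84.3 RPKM in GE (-2.02 ± 0.53, adjusted p = 0.0102). SP100, a nuclear body protein, averaged 4.06 ± 2.67 RPKM in LE and 19.7 ± 11.5 RPKM in GE (-2.11 ± 0.53, adjusted p = 0.00686). LE 21 was the lowest library for IFIT5 and SP100, and without it their adjusted p was 0.081 and 0.069. IFIT1, of the same family as IFIT5, had 6.93, 90.2, 12.4 and 76.0 RPKM in LE against 89.5, 126, 340.1 and 509 RPKM in GE (-2.85 ± 0.76, adjusted p = 0.011), and its call ended without LE 17 (0.073), LE 21 (0.059) or GE 024 (0.060). CMPK2, a mitochondrial nucleotide kinase, had 2.82, 8.54, 6.27 and 8.10 RPKM in LE against 12.8, 13.5, 33.96 and 47.2 RPKM in GE (-1.78 ± 0.50, adjusted p = 0.016), and its call ended without LE 17 (0.075), GE 022 (0.057) or GE 024 (0.093). GE 022 and 024 were the high gland libraries for all 5 of these genes.

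Among named members of the interferon list that did not pass, ISG17 (ISG15), the ubiquitin-like modifier, had 7.05, 78.4, 1.61 and 20.2 RPKM in LE against 38.6, 27.5, 82.2 and 137 RPKM in GE (adjusted p = 0.131). MX1, the dynamin-like antiviral protein, had 85.3, 88.3, 76.5 and 178 RPKM in LE against 34.5, 35.7, 84.4 and 151 RPKM in GE (0.66 ± 0.58, adjusted p = 0.532). RSAD2, or viperin, had 3.96, 5.21, 4.61 and 13.3 RPKM in LE against 5.64, 5.62, 38.8 and 114 RPKM in GE (adjusted p = 0.123). Values overlapped for all 3 genes. IRF2, a repressor of interferon responses in LE, averaged 13.8 ± 11.9 RPKM in LE and 17.9 ± 6.63 RPKM in GE (adjusted p = 0.767), and B2M, the light chain of class I molecules, 1312 ± 271 RPKM in LE and 2196 ± 517 RPKM in GE (adjusted p = 0.189). Of 21 tested antigen presentation genes, 1 was higher and 0 lower in LE.

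Motile cilia genes had 10 of 32 tested members lower and 0 higher in LE, with a median of -1.04. The share of all genes lower in LE was 6.44%. With LE 21 and 23 left out the count was 2, while the list median was -0.97. Without LE 17 and 19 and without LE 19 the count was 5, and after TMM and upper quartile scaling it was 6 and 4. DNAH5, an axonemal dynein, had 0.36, 1.31, 0.15 and 0.22 RPKM in LE against 11.1, 12.8, 10.8 and 10.9 RPKM in GE (-3.10 ± 0.38, adjusted p = 2.71e-07). The gland libraries were close together. GMNC, a regulator of multiciliated cells, had 1.01, 0, 0 and 2.64 RPKM in LE against 8.43, 11.0, 3.60 and 15.4 RPKM in GE (-2.55 ± 0.55, adjusted p = 0.00163), and ENKUR, a sperm and cilium protein, averaged 0.85 ± 1.22 RPKM in LE and 11.2 ± 4.71 RPKM in GE (-2.86 ± 0.69, adjusted p = 0.00471). Ciliated cell markers, a shorter list, summed to 0.84 to 12.5 RPKM in LE and 25.2 to 35.9 RPKM in GE, and whether cells with cilia took part in these differences was not tested.

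Of 26 tested nuclear receptors and cofactors, 1 was higher and 4 were lower in LE, beside 4.29% and 6.44% of all genes. Leaving out LE 21 and 23, 0 were higher and 2 lower, and 2 were lower after upper quartile scaling. PGR, the progesterone receptor, had 0.90, 2.61, 0.18 and 0.30 RPKM in LE against 9.25, 8.84, 12.0 and 17.9 RPKM in GE (-2.80 ± 0.54, adjusted p = 0.000419). The coactivator NCOA1 averaged 6.60 ± 4.58 RPKM in LE and 19.7 ± 3.54 RPKM in GE (-1.66 ± 0.43, adjusted p = 0.00879). The NCOA1 call ended without LE 17 (0.055) or LE 21 (0.052). ESR1, the estrogen receptor, had 11.7, 27.1, 3.98 and 5.65 RPKM in LE against 21.2, 26.2, 13.5 and 14.2 RPKM in GE and did not pass (adjusted p = 0.398). The oxytocin receptor OXTR was too low to test, at 1.76, 0, 0.63 and 0.56 RPKM in LE and at most 0.05 RPKM in GE.

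Growth factors and their regulators gave 3 members higher and 9 lower in LE among 37 tested, beside 4.29% and 6.44% of all genes. Without LE 21 and 23 these counts were 2 and 7. IL6R, the interleukin 6 receptor, had 0, 4.78, 6.68 and 6.30 RPKM in LE against 50.5, 40.1, 44.6 and 55.8 RPKM in GE (-3.51 ± 0.43, adjusted p = 2.71e-07), on the same side as its partner IL6ST. IGF1, the insulin-like growth factor, had 0, 0.60, 0 and 0 RPKM in LE against 15.9, 12.9, 3.50 and 16.4 RPKM in GE (-3.37 ± 0.64, adjusted p = 0.000366). Of 32 tested transcription factors, 0 were higher and 4 lower in LE, against 2 lower without LE 21 and 23 and 1 without LE 17 and 19. FOXO1 averaged 4.83 ± 4.15 RPKM in LE and 40.4 ± 12.9 RPKM in GE (-3.04 ± 0.49, adjusted p = 2.88e-05), FOXP1 12.6 ± 6.67 RPKM in LE and 64.7 ± 23.1 RPKM in GE (-2.36 ± 0.62, adjusted p = 0.0102), and STAT3, which carries the interleukin 6 signal, 5.99 ± 2.13 RPKM in LE and 21.0 ± 4.73 RPKM in GE (-1.68 ± 0.44, adjusted p = 0.00968). None of these 5 genes overlapped between the groups.

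Of 14 tested gland products and regulators, 2 were higher and 5 lower in LE, and of 10 tested complement genes, 0 and 2. C4BPA, a complement inhibitor, averaged 0.21 ± 0.30 RPKM in LE and 14.1 ± 3.68 RPKM in GE (-3.63 ± 0.49, adjusted p = 1.88e-06). AGR2, a disulfide isomerase of mucus secreting cells, had 278, 1.45, 289 and 592 RPKM in LE against 2.24, 14.2, 7.55 and 11.1 RPKM in GE (3.63 ± 1.08, adjusted p = 0.0238). LE 19 lay below all GE libraries for AGR2, and the call ended without LE 17 (0.089), LE 21 (0.10), LE 23 (0.12) or GE 018 (0.088). Of 52 tested genes of the secretory pathway and unfolded protein response, 2 were higher and 5 lower in LE, near the 4.29% and 6.44% of all genes. These counts were 7 and 4 after TMM scaling and 6 and 2 without LE 17 and 19. KDELR3, which returns proteins to the endoplasmic reticulum, averaged 62.2 ± 13.8 RPKM in LE and 155 ± 12.4 RPKM in GE (-1.32 ± 0.32, adjusted p = 0.00536), and 0.052 after TMM scaling.

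Shorter counts complete the lists, again beside 4.29% of all genes higher and 6.44% lower in LE. Counts of 1 or 2 members are too small to weigh against those shares. Of 15 tested calcium and phosphate genes, 3 were higher and 2 lower in LE; S100A11, a calcium binding protein, averaged 499 ± 128 RPKM in LE and 57.5 ± 10.8 RPKM in GE (3.08 ± 0.62, adjusted p = 0.000674). Of 19 tested immediate early genes, 5 were higher and 1 was lower in LE. Without LE 21 and 23, 0 were called in either direction, and CYR61 did not pass the filter on low values there. CYR61, a matricellular protein, averaged 7.23 ± 7.00 RPKM in LE and 0.20 ± 0.34 RPKM in GE (2.44 ± 0.33, adjusted p = 1.86e-06), and DUSP1, a MAP kinase phosphatase, 35.02 ± 21.8 RPKM in LE and 3.08 ± 0.74 RPKM in GE (2.76 ± 0.66, adjusted p = 0.00448). Of 14 tested metal genes, 2 were higher and 1 was lower in LE. SLC39A8, a zinc and manganese carrier, had 99.7, 4.32, 12.8 and 7.68 RPKM in LE against 2.28, 0.77, 0.14 and 0.33 RPKM in GE (3.21 ± 0.61, adjusted p = 0.000368). LE 17 was the high library for it. CYBRD1, an iron reductase, averaged 52.1 ± 38.3 RPKM in LE and 5.26 ± 3.11 RPKM in GE (3.01 ± 0.70, adjusted p = 0.00326). Of 13 tested prostaglandin genes 2 were higher and 1 was lower in LE, and of 26 matrix genes 1 was higher and 0 lower. Stroma markers summed to 23.0 to 335 RPKM in LE and 101 to 214 RPKM in GE. Within them DCN averaged 25.4 ± 25.2 RPKM in LE and 109 ± 30.8 RPKM in GE (-3.05 ± 0.73, adjusted p = 0.00435; 0.057 without LE 21), while LUM averaged 32.0 ± 33.1 RPKM in LE and 1.40 ± 1.24 RPKM in GE (3.41 ± 0.87, adjusted p = 0.008; 0.162 without LE 21 and 23). Both genes encode proteoglycans of stroma. Leukocyte markers summed to 34.7 to 161 RPKM in LE and 125 to 254 RPKM in GE, endothelial markers to 9.47 to 26.8 and 6.29 to 17.4 RPKM, smooth muscle and pericyte markers to 1.11 to 7.22 and 2.45 to 5.63 RPKM, and red blood cell markers to at most 0.25 and 0.04 RPKM. The part of other cell types in these differences was not tested.

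Within LE, libraries 21 and 23 stood apart from 17 and 19. Both lay above the other pair for 2846 of the 11131 genes (25.6%) and both below it for 886 (7.96%). They were at least 2 higher on log2(RPKM + 1) for 56 genes (0.503%), and LE 17 and 19 at least 2 higher for 4 genes (0.0359%). In 38 of the 56 genes the GE mean was above LE 17 and 19 too, and in 46 every day 20 conceptus was. The 56 genes were chosen for low values in LE 17 and 19, which by itself makes such counts high. The same counts were not made over all genes, so these cannot be weighed. Since the labels give these libraries 1 group, the pairs were not tested against each other.

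Genes with the widest gaps were GRP, SERPINA14 and genes of cell division, growth factor binding and junctions. TOP2A, a topoisomerase of dividing cells, had 0.01, 0.67, 20.5 and 22.5 RPKM in LE 17, 19, 21 and 23, against 1.16, 0.76, 1.40 and 1.67 RPKM in GE, and RRM2, which makes deoxynucleotides, had 1.43, 0.03, 46.4 and 29.6 RPKM in LE against at most 0.29 RPKM in GE. MKI67, the proliferation marker, had 0.18, 0, 9.39 and 13.1 RPKM in LE against at most 0.13 RPKM in GE. FST, which binds activin, had 0.06, 0.35, 23.1 and 26.1 RPKM in LE and at most 0.49 RPKM in GE, and CLDN1, a tight junction claudin, 0.68, 0.25, 45.3 and 25.0 RPKM in LE and 0.19, 8.69, 2.10 and 1.54 RPKM in GE. These 5 genes were at or below 1.43 RPKM in LE 17 and 19 and at or above 9.39 RPKM in LE 21 and 23. TFPI, the tissue factor pathway inhibitor, had 0.05, 0, 40.2 and 14.9 RPKM in LE and 6.54, 9.33, 7.95 and 15.6 RPKM in GE, and DCDC2, a microtubule protein, 2.01, 0.71, 34.8 and 32.5 RPKM in LE and 90.2, 88.4, 78.5 and 64.0 RPKM in GE. In the other direction CA8, a carbonic anhydrase related protein, had 18.9, 21.6, 0 and 1.66 RPKM in LE and at most 0.06 RPKM in GE.

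Cell cycle genes as a list followed this division of the LE libraries, though not every such gene did. Of 26 tested, 6 were higher and 0 lower in LE, against 1 without LE 21 and 23 and 17 without LE 17 and 19. ANLN, a protein of the cleavage furrow, had 4.18, 1.26, 21.6 and 15.4 RPKM in LE against 0, 0.34, 0.50 and 0.03 RPKM in GE (2.76 ± 0.43, adjusted p = 2.01e-05). TOP2A itself did not pass (1.28 ± 0.58, adjusted p = 0.156). Of 7 tested markers of dividing cells, 0 were called in either direction, against 6 higher without LE 17 and 19. AURKA, 1 of these markers, had 2.98, 3.80, 4.83 and 6.17 RPKM in LE against 6.38, 10.0, 5.11 and 12.5 RPKM in GE (adjusted p = 0.41).

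Trophoblast markers summed to 0.04 and 0.45 RPKM in LE 17 and 19, to 9.42 and 14.4 RPKM in LE 21 and 23 and to at most 0.33 RPKM in GE. A set of 35 genes was drawn from the conceptus, each at 50 RPKM or more in all 4 day 20 conceptuses and below 0.5 RPKM in every LE and GE library of the other days and every day 20 GE library. None of them reached 0.5 RPKM in LE 17 or 19, and 5 did in LE 21 and 7 in LE 23. Their sum was 0.62% of the conceptus sum in LE 21 and 0.32% in LE 23, against 0.0031% and 0.0054% in LE 17 and 19. A single gene made up 58.9 of the 81.2 RPKM summed in LE 21, and 21.5 of 42.3 RPKM in LE 23 came from 1 gene, so the shares and their order rest largely on 1 member in each library. C11orf34, annotated as placenta expressed transcript and named here after its values were seen, had 454, 0.62, 1639 and 5528 RPKM in LE against 0, 0, 1.34 and 0 RPKM in GE (7.85 ± 1.17, adjusted p = 9.06e-06) and averaged 2949 RPKM in the day 20 conceptuses. LE 19 was within the GE range for it, and LE 17, with trophoblast markers near 0, was far above. Whether conceptus or gland material took part in the differences that rest on LE 21 and 23 was not tested.

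**Figure D4:**
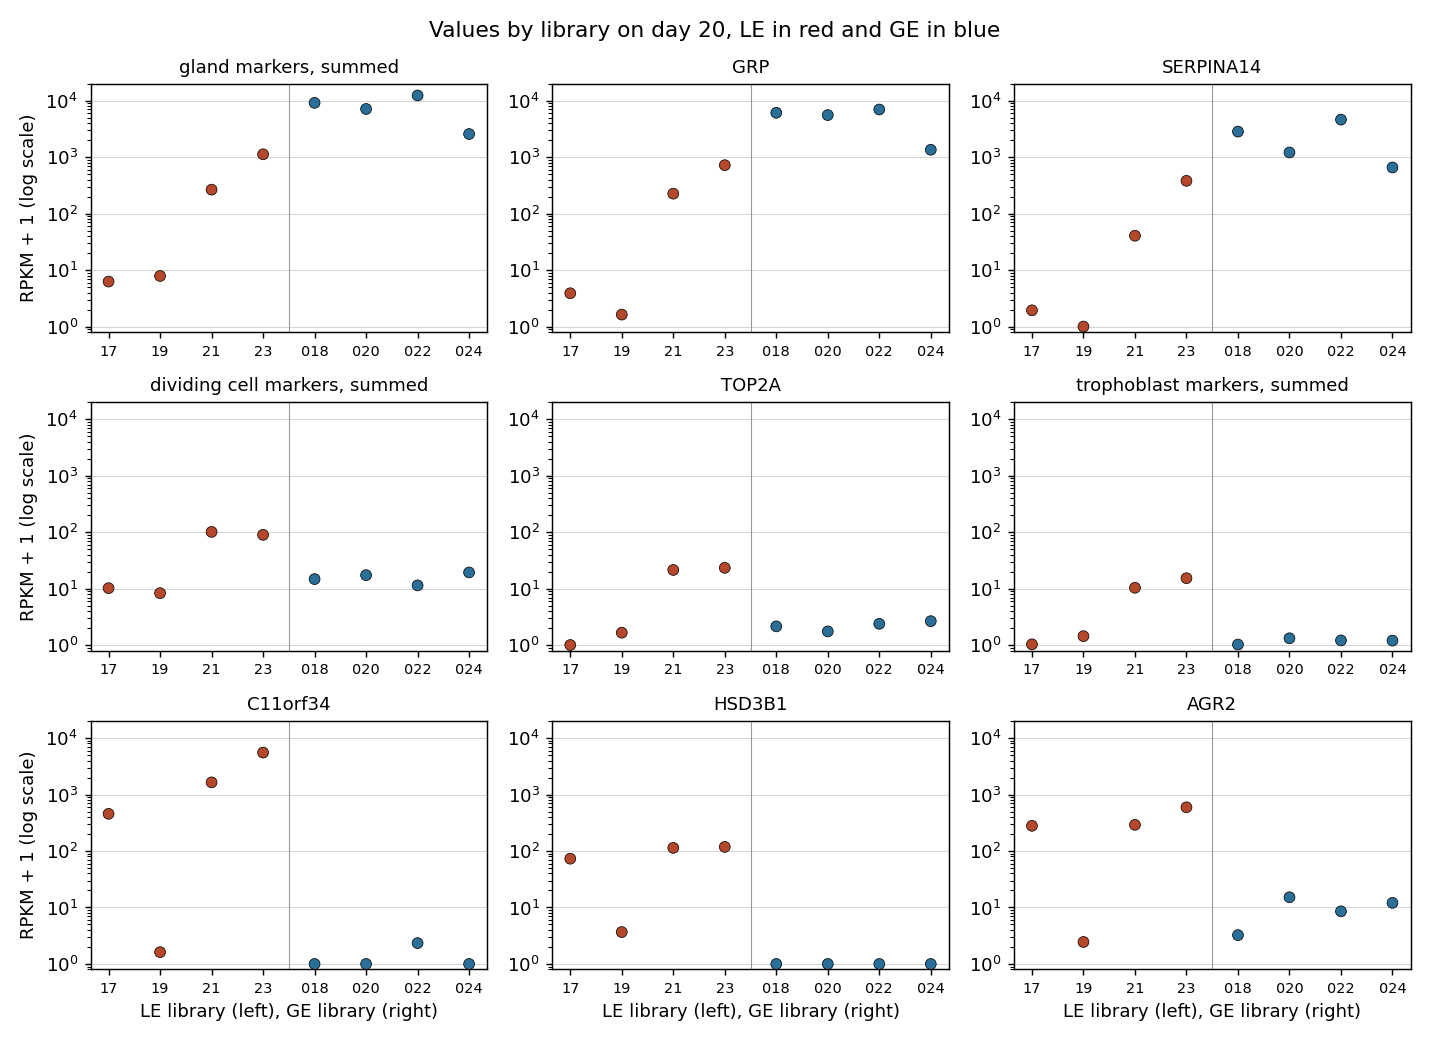
RPKM + 1 on a log axis in each library, LE left and GE right in each panel, for summed marker lists and single genes. LE 21 and 23 are above LE 17 and 19 for the summed gland, dividing cell and trophoblast markers, and the gland sums there rest mostly on GRP and SERPINA14. LE 19 alone is low for C11orf34, HSD3B1 and AGR2.

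Day 20 was then set beside the earlier days. On day 16, 753 genes (6.76%) were higher and 1750 (15.7%) lower in LE, and 294 and 549 of these were among the day 20 calls of the same direction, that is 61.6 and 76.6% of the day 20 calls and 39.04 and 31.4% of those of day 16. On day 14 the counts were 974 (8.75%) and 3011 (27.1%), on day 12 337 (3.03%) and 1021 (9.17%), and on day 10 295 (2.65%) and 1295 (11.6%). Genes called on day 20 and on all 4 earlier days numbered 51 higher and 192 lower in LE, and 127 and 78 of the day 20 calls were called on none of them. The difference between LE and GE on day 20 was tested against the mean difference of the other 4 days, and 218 of 11131 genes passed (1.96%), with 176 further towards LE on day 20 (1.58%) and 42 further towards GE (0.377%). Without LE 21 and 23 these counts were 8 and 11, and without LE 17 and 19 they were 514 and 58.

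Genes whose difference moved towards GE on day 20 included secreted and signalling proteins. For SPP1 the log2 difference of LE minus GE was -2.84, -0.67, -0.38 and -0.49 on days 10, 12, 14 and 16 and -6.95 on day 20, a change of -5.85 ± 0.79 (adjusted p = 2.6e-05). INHBA had 0.14, -0.48, -0.67 and -1.76 on the earlier days and -5.38 on day 20 (change -4.69 ± 0.56, adjusted p = 4.6e-06), and STC1 -1.69, -1.30, -0.10 and -0.51 and then -4.25 (change -3.35 ± 0.72, adjusted p = 0.0069; 0.053 without GE 022). On whole reads recovered from the values, the change of INHBA was -2.81 with edgeR and -3.05 with DESeq2 (DESeq2 adjusted p = 0.486). Neither INHBA nor STC1 passed with either tool. CFI reached -5.57 on day 16 and -6.03 on day 20, against -0.42 on day 10 (change -3.35 ± 0.66, adjusted p = 0.0035). TFF1, a trefoil peptide of mucous glands, was listed at 0 in every LE library and at 22.0, 4.06, 15.0 and 9.52 RPKM in GE, which had averaged 6.33 ± 9.09 RPKM on day 16 and 0 on day 10 (adjusted p = 0.0035). ATP2C2, a calcium pump of the Golgi, averaged 1.29 ± 1.70 RPKM in LE and 14.4 ± 7.26 RPKM in GE on day 20 (change -2.32 ± 0.48, adjusted p = 0.0058), and KIAA1551 42.5 ± 18.8 RPKM in LE and 139.7 ± 28.7 RPKM in GE (change -1.70 ± 0.36, adjusted p = 0.0063). HSPE1, a mitochondrial chaperonin with many copies in mammalian genomes, averaged 190.1 ± 59.5 RPKM in LE and 222 ± 40.004 RPKM in GE (change -2.44 ± 0.47, adjusted p = 0.0026), and its level is uncertain. Its differences were 0.77, 2.11, 3.55 and 2.27 on days 10 to 16 and -0.27 on day 20, where the groups overlapped and the test did not pass (adjusted p = 0.765).

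In the direction of LE, CYP26A1 averaged 45.9 ± 62.3 RPKM in LE on day 20 and was listed at 0 in GE, after LE means of 0.018, 0.038, 0.010 and 0.44 RPKM on days 10, 12, 14 and 16 (adjusted p = 3.7e-05). SLC27A2, a fatty acid carrier and ligase, had 21.4, 0, 17.9 and 9.95 RPKM in LE on day 20 and at most 0.13 RPKM in GE (change 3.32 ± 0.52, adjusted p = 0.00021). SEMA7A, a membrane semaphorin, had 15.9, 0.13, 20.7 and 23.8 RPKM in LE and at most 0.06 RPKM in GE (change 3.36 ± 0.60, adjusted p = 0.0012), and SCTR, the secretin receptor, 24.3, 0.06, 18.4 and 28.2 RPKM in LE and at most 0.35 RPKM in GE (change 3.02 ± 0.57, adjusted p = 0.0026). LE 19 was near 0 for all 3, while LE 17, 21 and 23 were above every GE library. SLC44A2, a choline carrier, averaged 17.9 ± 11.0 RPKM in LE and 3.01 ± 1.16 RPKM in GE (change 3.14 ± 0.57, adjusted p = 0.0018). CLDN8, a tight junction claudin, had differences of -5.49 on day 16 and -1.42 on day 20 (change 3.40 ± 0.65, adjusted p = 0.0026), and its groups overlapped on day 20 and did not pass (adjusted p = 0.112). PABPC1, a poly(A) binding protein with near copies, and PPP3CC, a calcineurin subunit, changed by 2.54 ± 0.46 (adjusted p = 0.0014) and 2.25 ± 0.42 (adjusted p = 0.0026) without passing on day 20 itself. For C11orf34 the difference was 5.21 on day 16 and at most 0.05 before, and the change on day 20 was 6.59 ± 1.30 (adjusted p = 0.0036). Of the 30 genes named in the text that passed this test, 27 could be fitted without LE 21 and 23, and 20 of the 27 calls ended there. On whole reads recovered from the values, edgeR ended 21 of the 30 calls and DESeq2 17, SPP1 not among them. Both tools ended the calls of INHBA, CFI, STC1, TFF1, ATP2C2 and SCTR, and edgeR those of CYP26A1 and C11orf34.

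**Figure D5:**
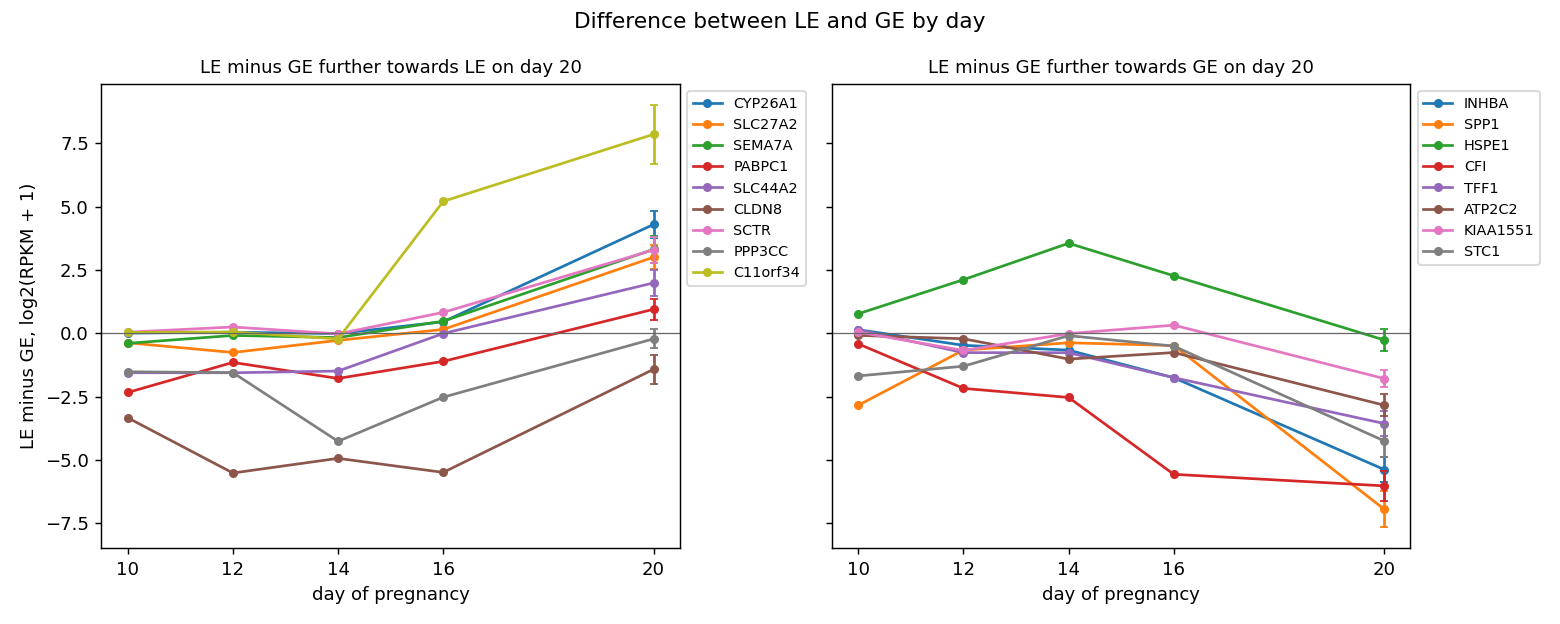
Log2 difference of LE minus GE by day of pregnancy for the genes with the smallest adjusted p in the test of day 20 against the other days, and C11orf34; bars on day 20 are standard errors. SPP1 and INHBA stand at -6.95 and -5.38 on day 20 after -0.49 and -1.76 on day 16, and C11orf34 at 7.85 after 5.21. With edgeR on recovered reads the changes of INHBA and C11orf34 did not pass. Values of CYP26A1 and TFF1, listed at 0 in all day 20 libraries of 1 tissue, depend on the pseudocount.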

How the data were processed

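The authors deposited, per the file headers, RPKM values per gene and library for LE and GE, and for the conceptus gene read counts beside RPKM values. Their genome build was Oar v3.1, per the submitters' processing notes. Its aligner, annotation and counting rule, and whether strand was used in counting, were not given in the sources used here. Deposited LE and GE tables were joined by gene identifier (25174 of 25197 features). Exon lengths from the conceptus table and the steps of low RPKM values gave whole reads for 100% of low values within 0.1 read, and these reads served 2 alternatives. Amplified reads are not independent molecules.

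For the main test limma 3.58.1 (R 4.3.3) with a mean-variance trend was fitted to log2(RPKM + 1) of all 40 LE and GE libraries in 10 groups, over 11131 genes at 1 RPKM or more in at least 4 libraries, with Benjamini-Hochberg adjusted p under 0.05 as a call. Fold changes are differences on this scale, LE minus GE, with standard errors, and understate changes of low genes. A second contrast set day 20 against the mean of days 10 to 16. The mitochondrial share was tested by exact permutation. On simulated data the test found 58% of 4-fold and 96% of 16-fold changes in 11131 genes for LE against GE on day 20, with 13 calls among unchanged genes. Alternatives included edgeR 4.0.16 and DESeq2 1.42.0 on recovered reads; tables were made with Python 3.11.15.

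Named genes are the 15 largest differences each way under the conditions given in the text, up to 6 members per list by adjusted p, a fixed core set, up to 12 genes each way that part LE 21 and 23 from 17 and 19, and up to 8 each way by the second contrast; those printed were picked among these, and some are not reported here. The members, 26 gene lists, 10 marker lists and tests were chosen with earlier results of these data known. The labels do not say which LE and GE libraries share an animal, so the main test assumed no pairing. Libraries of neighbouring number (17 and 018, for instance) had deviations correlated at -0.007 to 0.051, and other LE and GE pairs at -0.057 to 0.022. Such weak values cannot show whether any of them share an animal. Gene names came from the tables and, for 189 features, from a RefSeq table of assembly ARS-UI_Ramb_v3.0, used for names alone. Sequences are not used here.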

Additional observations from a re-analysis of the deposited data

Results flagged for a closer look

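Among 220 groups of 4 day 20 libraries examined, 19 held 1 library far from the other 3. The limit used flags about 1 in 20 groups of normally distributed values. Most groups here hold RPKM of chosen genes, and 3 libraries at 0 flag any other value, so that rate need not hold. LE 19 was the low library for 3BHSD (HSD3B1) (2.67 RPKM beside 72.1 to 117), HSD11B1 (5.74 beside 65.7 to 90.3), AGR2 (1.45 beside 278 to 592), SEMA7A (0.13 beside 15.9 to 23.8), SCTR (0.06 beside 18.4 to 28.2) and CLDN8 (0.11 beside 5.84 to 6.27). LE 23 was the high library for CLDN10 (5.03 RPKM), INHBA (2.71), MX1 (178) and WNT7A (1.92), and LE 17 was low for IL6R (0 RPKM) and high in mitochondrial share (25.0%). LE 21 had the most mapped reads, 26.0 M. In the glands, GE 024 was low for GRP (1349 RPKM) and ATP2C2 (3.74), GE 022 was low for IGF1 (3.50) and high for C11orf34 (1.34), GE 020 was high for DNAH5 (12.8) and GE 018 for DGAT2 (1.03). What set these libraries apart was not tested.

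For 30 named genes the LE minus GE difference of day 20 differed from the mean of the other days in limma's test, given here as the change on log2(RPKM + 1). Towards LE these were C11orf34 (6.59), CYP26A1 (4.17), CLDN8 (3.40), SEMA7A (3.36), SLC27A2 (3.32), SERPINE2 (3.29), SLC44A2 (3.14), SCTR (3.02), SLC7A2 and PABPC1 (2.54 each), PPP3CC and CYR61 (2.25 each), SCNN1B (2.22), ITGA3 (2.13), ANLN (1.88), TRPM6 (1.61), ATP5B (1.45) and CTNNA1 (1.37). Towards GE they were SPP1 (-5.85), INHBA (-4.69), SERPINA14 (-4.67), MEP1B (-3.66), CFI and STC1 (-3.35 each), TFF1 (-2.78), C4BPA (-2.47), HSPE1 (-2.44), ATP2C2 (-2.32), CLDN10 (-2.07) and KIAA1551 (-1.70). The values of CYP26A1 and TFF1, listed at 0 in all day 20 libraries of 1 tissue, depend on the pseudocount. The change of SERPINA14 was -0.92 with edgeR and -0.77 with DESeq2 on recovered reads and -1.43 without LE 17 and 19, and that of CLDN10 was -0.07 with edgeR and -0.08 with DESeq2, none of which passed.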

How the results depend on the processing

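Over 24 alternatives, 68 of the 98 named genes called on day 20 kept direction and call wherever a value could be had, and no called gene reversed. Many named genes were chosen for large differences or small adjusted p, so these counts do not stand for all calls. Without LE 21 and 23, 22 of 95 named calls ended, while only 418 of all 1194 calls were kept. Leaving out 1 library gave 744 to 1327 calls, 293 to 597 higher and 402 to 730 lower in LE. For the difference of days it gave 76 to 486 calls, 49 to 405 towards LE and 18 to 81 towards GE. For the mitochondrial share it gave 12.6 to 16.1 points. Without LE 21 and 23 together, 456 genes were called, 147 higher and 309 lower, and 19 for the difference of days (8 and 11), and the mitochondrial share differed by 17.7 points, where the smallest possible p is above the threshold. Without LE 17 and 19, 446 genes were lower, and 572 passed for the difference of days, 514 of them towards LE. Array weights gave 728 genes higher, and 466 for the difference of days (404 towards LE). edgeR gave 461 genes lower, and 90 for the difference of days (71 and 19), and DESeq2 gave 844 higher, and 404 (285 and 119). A fit of the 8 day 20 libraries alone called 960 genes, kept 764 of the 1194 calls and ended 9 of the 98 named ones (SP100, IFIT1, ATP5B, CTSL, AGR2, DCN, DCDC2, SLC27A2 and SLC44A2). Upper quartile scaling gave 352 genes lower, and 123 for the difference of days (57 and 66). A pseudocount of 0.1 gave 134 for the difference of days, 106 towards LE, and TMM and RLE scaling 108 and 103 towards LE. The assumed pairs as a replicate block gave 489 genes higher and 705 lower in LE, and 162 and 38 for the difference of days, and ended 0 of the 98 named day 20 calls, but ended 5 of 30 for the difference of days. Genes without a call changed sign as follows: without LE 17 and 19, IRF2 0.0438, TFPI 1.30 and PPP3CC 0.21; without LE 21 and 23, TOP2A -0.77 and CLDN1 -1.09; with edgeR, TFPI 0.71, PPP3CC 0.15 and HSPE1 0.0063; with DESeq2, TFPI 0.61 and PPP3CC 0.065. The cause of these changes was not tested. List counts without LE 21 and 23 or LE 17 and 19 and after scaling were alternatives chosen after seeing the data. With 4 libraries a side, 58% of 4-fold changes were found on simulated data, which lacked the split within LE and changed no low genes. Values near 1 RPKM rest on few reads.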

Other observations

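Transcripts of 3 conceptus genes were present in LE 21 and 23 and listed at 0 in LE 17 and 19 and in all 4 GE libraries. TP-1, interferon tau, had 2.09 and 7.15 RPKM in LE 21 and 23, PGF, placental growth factor, 3.06 and 4.07 RPKM, and the placental lactogen feature 0.36 and 2.47 RPKM; near-identical copies make the TP-1 level uncertain. Among genes higher in LE 17 and 19 than in LE 21 and 23, TM7SF2, a sterol reductase, had 47.0, 43.1, 5.66 and 17.0 RPKM in LE 17, 19, 21 and 23, against 3.96 to 6.40 RPKM in GE, and CTSS, a cathepsin of antigen presenting cells, had 22.7, 19.9, 5.29 and 8.84 RPKM in LE against 2.92 to 5.78 RPKM in GE.

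For several named genes, of which some are given here, the sign of the LE minus GE difference was not the same on all days. CYBRD1 had log2 differences of 7.22, 1.09, -1.90, 1.30 and 3.01 on days 10, 12, 14, 16 and 20. Its negative value on day 14 passed limma's test (adjusted p = 0.0314). CD9 had -1.40 on day 10 (adjusted p = 0.044) and 2.04 on day 20, and CTNNA1 -0.96 (adjusted p = 0.044) and 1.56. MX1 had log2 differences of 3.58, 2.73, -1.17, -1.34 and 0.66 on days 10, 12, 14, 16 and 20, and IFIT1 had 2.45, 2.02, -1.08, -4.38 and -2.85. For AGR2 they were -1.98, 3.97, 6.83, 6.97 and 3.63, and the negative value of day 10 did not pass (adjusted p = 0.235). The negative values of MX1 on days 14 and 16 (adjusted p = 0.111 and 0.0926) and the day 12 and 14 values of IFIT1 (0.0734 and 0.277) did not pass either. The test of day 20 against the mean of the other days did not pass for MX1, IFIT1 and AGR2, with adjusted p of 0.899, 0.106 and 0.942.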
